A study of Homo sapiens with 36 samples.

Results

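RNA-Seq libraries of BRAF-mutant melanoma cells were examined for 46 genes of DNA replication and deoxynucleotide synthesis, out of 60656 genes measured. The members were chosen by name and role, with earlier results of these data known, and all 46 were found and passed the filter on low values in each of 3 cell lines. They comprise the 6 subunits of the origin recognition complex (ORC1 to ORC6), the 2 loaders CDC6 and CDT1, the 6 subunits of the replicative helicase ring (MCM2 to MCM7), MCM8, the 4 GINS subunits, 4 firing factors (CDC45, CDC7, DBF4 and MCM10), the sliding clamp PCNA with its 5 loader subunits (RFC1 to RFC5), 7 polymerase and primase subunits (POLA1, POLA2, PRIM1, PRIM2, POLD1, POLE and POLE2), FEN1 and LIG1, which finish Okazaki fragments, the 3 RPA subunits, 4 enzymes of nucleotide synthesis (RRM1, RRM2, TYMS and TK1) and the uracil-DNA glycosylase UNG.

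DNA replication is prepared in G1, when ORC marks origins and CDC6 and CDT1 load the inactive MCM ring. At S phase entry the CDC7-DBF4 kinase, CDC45 and GINS turn that ring into the active helicase, POLA and primase lay primers, RFC loads PCNA, and the POLD and POLE polymerases extend the strands. Many genes of this machinery are transcribed by E2F factors once RB is phosphorylated, and in BRAF-mutant melanoma the ERK pathway drives the cyclin D1 that begins this step.

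The human melanoma lines were 1205LuTR-NR2F1 (1205Lu), WM793TR-NR2F1 (WM793) and A375TR-NR2F1 (A375), each with a BRAF-V600 mutation. All cells, control groups included, hold a Tet repressor together with an NR2F1 cDNA under the control of doxycycline (DOX), and NR2F1 is an orphan nuclear receptor linked to dormancy of tumor cells. The groups of each line were DMSO and DMSO + DOX as controls, and the inhibitors given as BRAFi + MEKi and as BRAFi + MEKi + DOX, for 72 hours, with DOX at 100 ng/mL, the BRAF inhibitor PLX4720 at 1 µM and the MEK inhibitor PD0325901 at 35 nM. Each of the 12 groups had 3 libraries, 36 in all. The DOX libraries received DOX for 24 hours before these treatments, and the sources leave unclear whether this also applied to the groups named without DOX. As DOX was given to no cells lacking the cDNA, DOX and NR2F1 cannot be told apart. 1205Lu and WM793 were grown in another medium than A375, so for A375 the line and the medium cannot be told apart. The replicates came from independent experiments according to the study's methods. The question these groups address is how induced NR2F1 changes the response of melanoma cells to the inhibitors.

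Values are normalized expression per gene and library on the scale deposited by the authors, and fold changes are on the log2(value + 1) scale. A gene was called changed when limma's moderated test gave a Benjamini-Hochberg adjusted p under 0.05 over all genes tested in that line. Library totals lay between 27027824 and 34621958, and the reads per library were estimated at 6580000 to 60500000. The melanocyte lineage genes SOX10 and S100B were present in all 36 libraries, while the pigment genes MLANA and TYR did not exceed 0.974 and 4.9. The T cell gene CD3E did not exceed 1.19. NR2F1, whose reads from the cDNA and from the cells' own gene cannot be separated, was between 2182 and 6273 without DOX in 1205Lu, at 20699, 9155 and 9270 with DMSO + DOX and at 35187, 35345 and 30839 with BRAFi + MEKi + DOX. Without and with DOX it was between 321 and 3690 and between 30421 and 76313 in WM793, and between 405 and 1431 and between 14995 and 35683 in A375. Every DOX library was above every library without DOX of its line. In 1205Lu the library BRAFi + MEKi replicate 1 stood apart, with a mean log2 level over the members of 8.41 against 9.68 and 9.55 in replicates 2 and 3, and BRAFi + MEKi + DOX replicate 1 was at 9.53 against 10.05 and 10.06. DUSP6, an ERK target and a check of the inhibitors, was lower in the same libraries, at 75.8 against 275 and 305, and at 74.6 against 617 and 710. Over a list of ERK output genes the mean log2 level was 8.81 against 9.63 and 9.72 with BRAFi + MEKi. With BRAFi + MEKi + DOX it was 8.74 against 8.90 and 9.02, a smaller gap. Replicate 1 was also the lowest for the members with DMSO (10.44 against 10.78 and 10.83) and with DMSO + DOX (10.58 against 10.79 and 10.79), by less. NR2F1 was highest in replicate 1 with DMSO, at 6273 against 2182 and 2327. The counts of called members in 1205Lu and the medians over all 46 are therefore given also without replicate 1 of both inhibitor groups. These fits keep replicate 1 of the control groups. Other values in 1205Lu include both libraries unless stated. In A375 replicate 3 was the highest for the members with BRAFi + MEKi, at 9.07 against 8.77 and 8.77. With BRAFi + MEKi + DOX it was again the highest, at 10.13 against 9.72 and 9.77. The A375 counts on leaving out single libraries are given in the last section.

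BRAFi + MEKi lowered most of the replication genes in 1205Lu and A375 and fewer of them, by less, in WM793. In 1205Lu 40 of 46 members fell and none rose, where 14.4% of all genes tested fell and 16.5% rose. In A375 43 fell and none rose, against 19% and 20.5% of all genes. In WM793 18 fell and none rose, against 16.9% and 20.4% of all genes. The median log2 fold change over the members was −1.53, −0.24 and −1.78 in 1205Lu, WM793 and A375, beside 0.11, 0.15 and 0.06 for all genes. In linear terms, the mean level with BRAFi + MEKi was 36.3% of that with DMSO for the median member in 1205Lu, 84.4% in WM793 and 29.3% in A375. Below 10% of the DMSO level were 6 members in A375 and none in the other lines. Without the 2 libraries of 1205Lu that stood apart, 39 members fell there, with a median of −1.16 (the share of all genes in this fit is not given). Of the 40 members called with all libraries, each was then nearer to 0 and all but MCM6 (−0.55, adjusted p = 0.067) still fell. The libraries left out were chosen for low levels of these members, so the move toward 0 largely follows from that choice. The log2 fold change of 7 members (MCM5, MCM6, GINS2, CDC45, MCM10, POLD1 and POLE2) became more than 1.5 times smaller, as given with each of them. In 1205Lu and A375 40 members fell in both lines, and 16 members fell in all 3 lines. The share of all genes that fell in both or in all 3 lines is not given, so these overlaps are not read against a background. These are bulk libraries, so fewer cells in S phase and less RNA per cell cannot be told apart.

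**Figure D1:**
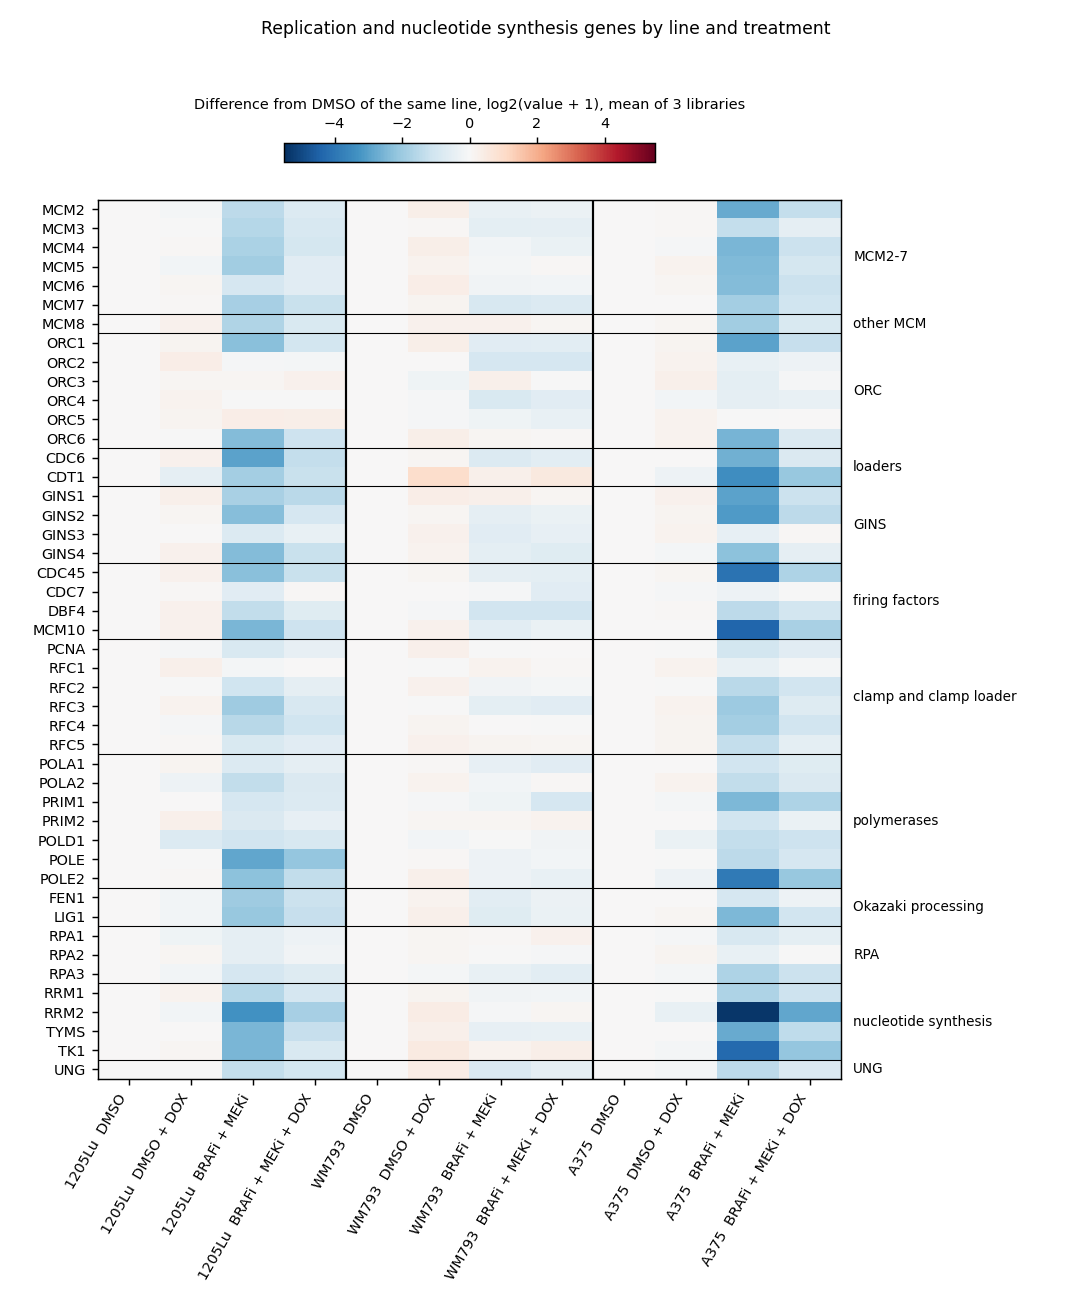
Difference of the group mean of log2(value + 1) from the DMSO group of the same line, as a color scale (blue lower, red higher), for the 46 members (rows, by subgroup) in the 12 groups (columns, each the mean of 3 libraries, with DMSO at 0 by construction). The darkest cell is RRM2 in A375 with BRAFi + MEKi, at −5.33, while the WM793 column with BRAFi + MEKi stays pale, with a median of −0.24.

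The WM793 count depends on the scaling. Library totals fell with BRAFi + MEKi in WM793, from a mean of 33837640 to 29348837, and when libraries were rescaled to the same total the median of all genes moved from 0.15 to 0.33. The members then split into 7 called higher (MCM8, ORC3, ORC6, GINS1, RFC1, RFC5 and RPA1) and 8 called lower (MCM7, ORC2, ORC4, CDC6, DBF4, FEN1, LIG1 and UNG). The other 10 members that fell in WM793 as deposited, MCM3, ORC1, GINS2, GINS3, CDC45, MCM10, RFC3, POLA1, RPA3 and TYMS, then had log2 fold changes below 0 that did not pass the test. Of all genes 27.3% were then called higher and 12.2% lower in WM793. In 1205Lu the same rescaling left the count at 40 lower, against 12.8% of all genes, and in A375 it gave 38 lower, against 15.4%.

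The ORC subunits differed in which lines they fell. ORC1, the largest subunit, fell in all 3 lines, with log2 fold changes of −2.29 (SE 0.50), −0.64 (SE 0.20) and −2.95 (SE 0.16) in 1205Lu, WM793 and A375. ORC6, the smallest subunit, was 1061, 1101 and 1079 in the 1205Lu libraries with DMSO and 95.9, 333 and 277 with BRAFi + MEKi. It was 1166, 1039 and 1276 in A375 with DMSO and 203, 192 and 191 with BRAFi + MEKi, whereas WM793 gave 1368, 1426 and 1453 and then 1472, 1643 and 1517. The ORC6 groups did not overlap in any line, with the inhibitor libraries lower in 1205Lu and A375 and higher in WM793. The log2 fold changes of ORC6 were −2.38 (SE 0.33, adjusted p = 0.00013), 0.12 (SE 0.11, adjusted p = 0.41) and −2.56 (SE 0.11, adjusted p = 4.4e-09) in 1205Lu, WM793 and A375.

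ORC2, the core subunit with the smallest response to DOX, was called lower in WM793 and not in the other lines. It was 1124, 805 and 788 with DMSO and 887, 845 and 858 with BRAFi + MEKi in 1205Lu, while in WM793 it went from 2052, 1641 and 1623 to 1229, 734 and 907. In A375 the values were 944, 1115 and 986 and then 766, 694 and 822. ORC2 fell in WM793 by 0.91 (SE 0.17, adjusted p = 0.00072), and its log2 fold changes in 1205Lu and A375, −0.05 (SE 0.17, adjusted p = 0.86) and −0.42 (SE 0.16, adjusted p = 0.0503), did not pass the test. ORC4 fell by 0.82 in WM793 and fell by 0.49 in A375, ORC3 fell by 0.52 in A375, and ORC5 was not called in any line, with log2 fold changes between −0.25 and 0.34. The 6 ORC genes had medians of −0.02, −0.44 and −0.51 in 1205Lu, WM793 and A375, in 1205Lu and A375 the values nearest 0 among the subgroups with more than 1 member.

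The 160 bases before the transcription start of 6 members are printed here, because ORC subunits with a strong and with a weak response can be set side by side with a ring subunit that responded to DOX in A375 (MCM6) and a polymerase that did not pass the test there (POLE). They are RefSeq sequence of GRCh38.p14, 5′ to 3′ on the strand of the gene, from chr1:52404424-52404583 (minus strand) for ORC1, chr16:46689499-46689658 (plus) for ORC6, chr2:200963661-200963820 (minus) for ORC2, chr7:104208014-104208173 (minus) for ORC5, chr2:135876444-135876603 (minus) for MCM6 and chr12:132687343-132687502 (minus) for POLE. Capitals mark matches on either strand to CCAAT or to an E2F core, for which the letters searched were TTCCCGC and, as variants of it, TTCGCGC with TTGCCGC and finally TTGGCGC.
ORC1: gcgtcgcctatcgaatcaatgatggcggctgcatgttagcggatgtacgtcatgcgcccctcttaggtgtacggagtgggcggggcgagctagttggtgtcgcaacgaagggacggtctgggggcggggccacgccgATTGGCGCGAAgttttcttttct
ORC6: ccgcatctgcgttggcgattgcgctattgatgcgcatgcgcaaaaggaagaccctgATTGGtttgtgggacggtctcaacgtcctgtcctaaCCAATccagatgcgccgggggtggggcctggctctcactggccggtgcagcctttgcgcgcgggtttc
ORC2: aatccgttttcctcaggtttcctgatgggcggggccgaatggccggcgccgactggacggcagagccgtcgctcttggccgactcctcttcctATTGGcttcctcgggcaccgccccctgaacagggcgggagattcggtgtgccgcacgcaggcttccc
ORC5: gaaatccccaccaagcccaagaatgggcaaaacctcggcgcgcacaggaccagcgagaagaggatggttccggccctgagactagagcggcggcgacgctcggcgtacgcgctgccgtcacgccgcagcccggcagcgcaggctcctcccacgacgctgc
MCM6: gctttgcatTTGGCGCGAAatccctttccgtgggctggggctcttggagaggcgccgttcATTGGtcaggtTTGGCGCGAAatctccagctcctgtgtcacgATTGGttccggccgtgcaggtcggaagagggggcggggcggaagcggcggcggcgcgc
POLE: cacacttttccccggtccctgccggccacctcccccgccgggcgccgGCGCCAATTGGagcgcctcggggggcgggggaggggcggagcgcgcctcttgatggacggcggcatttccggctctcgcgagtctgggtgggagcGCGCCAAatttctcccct

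In these stretches ORC1, MCM6 and POLE hold E2F core letters, where ORC6 and ORC2 hold CCAAT letters alone and ORC5 holds neither. ORC6 holds 2 CCAAT matches and ORC2 holds 1. Over windows from 250 bases before to 50 bases after the start, 34 of 53 windows of the members held an E2F core match (64.2%), against 13.0% of all 35116 windows. By gene this was 31 of 41 members with a window, 18 of 23 among those called higher with DOX under BRAFi + MEKi in A375 and 13 of 18 among the others. CCAAT, which can overlap an E2F core match, was found in 30 of 53 windows (56.6%) against 34.6%. MCM10 and CDC45 had no E2F core match but held CCAAT. The cell cycle element CHR (TTTGAA or TTCGAA) was found in 7.55% of the members' windows against 16.4%, the nuclear receptor half-site AGGTCA in 9.43% against 13.8%, and the direct repeat AGGTCANAGGTCA in none against 0.0228%. MCM4, MCM5, GINS4, RPA2 and RPA3 had no window in the table used. A match of letters is a description of these windows and says nothing of binding.

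The loaders CDC6 and CDT1 fell strongly in 1205Lu and A375. CDC6 was 2444, 2639 and 3700 with DMSO and 127, 724 and 560 with BRAFi + MEKi in 1205Lu, and 2189, 1690 and 2459 and then 313, 346 and 340 in A375. In WM793 it went from 2811, 3267 and 3092 to 1831, 1608 and 1933, again without overlap. The log2 fold changes of CDC6 were −2.95 (SE 0.47), −0.77 (SE 0.12) and −2.65 (SE 0.15) in 1205Lu, WM793 and A375. CDT1, the loader that geminin inhibits, fell by 1.86 (SE 0.33) in 1205Lu and fell by 3.42 (SE 0.32) in A375 and was not called in WM793 (log2 fold change 0.29, SE 0.29, adjusted p = 0.47).

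All 6 ring subunits MCM2 to MCM7 fell in 1205Lu and A375, and MCM3 and MCM7 fell in WM793. MCM5, the subunit with the largest mean response to DOX, was 1605, 2453 and 2331 with DMSO and 163, 1146 and 956 with BRAFi + MEKi in 1205Lu. In A375 it was 2410, 2542 and 2927 and then 537, 435 and 475, and in WM793 2120, 3110 and 2958 and then 2790, 2372 and 2363. The groups overlapped in WM793 and not in the other lines. Without the 2 libraries of 1205Lu, MCM5 was at −0.999 there, and the ring ran from −0.55 (MCM6) to −1.53 (MCM7). With all libraries, within the ring the log2 fold changes ranged from −0.94 (MCM6) to −1.89 (MCM5) in 1205Lu and from −1.31 (MCM3) to −2.75 (MCM2) in A375. MCM8, a ring relative that acts in recombination, was 1900, 1792 and 1590 and then 570, 408 and 436 in A375. MCM8 fell in 1205Lu and A375, with log2 fold changes of −1.65 and −1.91, and was not called in WM793 (0.23, adjusted p = 0.23).

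The helicase partner CDC45 and the firing factor MCM10 were among the 4 members that fell most in A375, with RRM2 and TK1. MCM10 was 960, 945 and 1142 with DMSO and 38.7, 38.5 and 74.7 with BRAFi + MEKi in A375, which left 4.99% of the DMSO level. In 1205Lu it was 893, 1019 and 1152 and then 43.5, 338 and 378, and in WM793 1340, 1537 and 1498 and then 1041, 948 and 958. For MCM10 the log2 fold changes were −2.51 (SE 0.59), −0.57 (SE 0.14) and −4.36 (SE 0.28) in 1205Lu, WM793 and A375. For CDC45 they were −2.28 (SE 0.52), −0.48 (SE 0.16) and −4.05 (SE 0.35), and both genes were called in each line. Without the 2 libraries the values in 1205Lu were −1.51 for MCM10 and −1.41 for CDC45.

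Among the GINS subunits, GINS2 was 896, 811 and 1017 and then 110, 81.3 and 128 in A375 and 488, 896 and 789 and then 37, 305 and 218 in 1205Lu, without overlap. GINS3 moved less than its partners, from 429, 455 and 470 to 336, 324 and 344 in A375. The GINS log2 fold changes ranged from −0.75 (GINS3) to −2.36 (GINS2 and GINS4) in 1205Lu, where GINS2 was at −1.44 without the 2 libraries, and from −0.43 (GINS3) to −3.10 (GINS2) in A375. DBF4, the regulatory subunit of the CDC7 kinase, fell in all 3 lines (−1.36, −1.06 and −1.42), and in WM793 this was the largest fall of the members, from 2997, 2574 and 2836 to 1323, 1475 and 1234 (SE 0.11, adjusted p = 8.4e-06). CDC7 itself was not called in any line, with log2 fold changes of −0.61, −0.06 and −0.28. Without the 2 libraries of 1205Lu, CDC7 was at −0.11 there.

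Of the clamp and its loader, PCNA fell by 0.84 in 1205Lu and fell by 1.02 in A375. RFC3 was 1895, 1672 and 1744 and then 472, 424 and 446 in A375, and 1142, 1421 and 1542 and then 160, 547 and 510 in 1205Lu. RFC1, the large subunit, was 3857, 3069 and 3713 and then 2544, 2657 and 2793 in A375. RFC1 was the clamp loader subunit with the log2 fold change nearest 0 in 1205Lu (−0.10, which did not pass the test) and A375 (−0.41, SE 0.12), and in WM793 it was at 0.20, which did not pass the test either, while RFC2 to RFC5 fell by log2 fold changes between −0.86 and −1.93 in 1205Lu and between −1.30 and −1.98 in A375.

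All 7 polymerase and primase genes fell in 1205Lu and in A375, and POLA1 fell in WM793. POLE2, the accessory subunit of polymerase epsilon, was 255, 270 and 346 and then 18.4, 17.5 and 19.7 in A375, a log2 fold change of −3.89 (SE 0.40). In 1205Lu POLE2 was at −2.28 with all libraries and at −1.31 without the 2 libraries, and POLD1 at −1.04 and −0.68. The catalytic subunit POLE fell by 2.86 (SE 0.41) in 1205Lu and fell by 1.43 (SE 0.17) in A375. POLD1, the catalytic subunit of polymerase delta, was 2055, 2029 and 2301 and then 736, 766 and 1078 in A375, a log2 fold change of −1.33. FEN1, the flap nuclease, and LIG1, the ligase that seals Okazaki fragments, fell in all 3 lines. LIG1 went from 1336, 1177 and 1370 to 181, 195 and 366 in A375, and FEN1 from 3727, 3658 and 5096 to 2122, 2126 and 2221. The log2 fold changes of FEN1 were −1.96, −0.57 and −0.93 in 1205Lu, WM793 and A375, and those of LIG1 −2.09, −0.66 and −2.46.

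RPA, the single-strand binding protein, has the subunits RPA1 to RPA3. RPA1 went from 6453, 6806 and 6230 to 3341, 3405 and 3799 in A375, and RPA3 from 1731, 1597 and 1573 to 464, 494 and 546. The 3 RPA genes fell by log2 fold changes between −0.48 and −0.91 in 1205Lu and between −0.42 and −1.70 in A375, and RPA3 fell by 0.43 in WM793. UNG, which removes uracil from DNA, went from 2499, 2290 and 2988 to 784, 862 and 1293 in A375 and fell in all 3 lines (−1.31, −0.80 and −1.43).

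The enzymes of nucleotide synthesis had a median of −2.52 in 1205Lu and of −3.52 in A375, the lowest of the subgroups in A375. Without the 2 libraries of 1205Lu the median there was −1.81, beside −1.82 for the loaders. RRM2, the subunit of ribonucleotide reductase whose level follows S phase, was 8574, 7390 and 7404 with DMSO and 129, 158 and 345 with BRAFi + MEKi in A375, which left 2.71% of the DMSO level. In 1205Lu it was 7640, 6941 and 7464 and then 220, 1302 and 1405, and in WM793 6774, 6381 and 10250 and then 4892, 8374 and 9482. RRM2 fell by 3.31 (SE 0.54) in 1205Lu and fell by 5.33 (SE 0.33) in A375, and its log2 fold change in WM793 was −0.06 (SE 0.27, adjusted p = 0.88). RRM1, the large subunit that is present through the cycle, went from 4550, 4186 and 4042 to 1418, 1211 and 1363 in A375, and its log2 fold changes were −1.57 (SE 0.20) in 1205Lu and −1.68 (SE 0.11) in A375. TYMS, the thymidylate synthase, fell in each line (−2.53, −0.43 and −2.76), and 1160 of its 2421 exonic bases also lie in TYMSOS or ENOSF1, which libraries without strand cannot separate. TK1, the thymidine kinase of the salvage route, fell by 2.50 in 1205Lu and fell by 4.27 in A375.

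**Figure D2:**
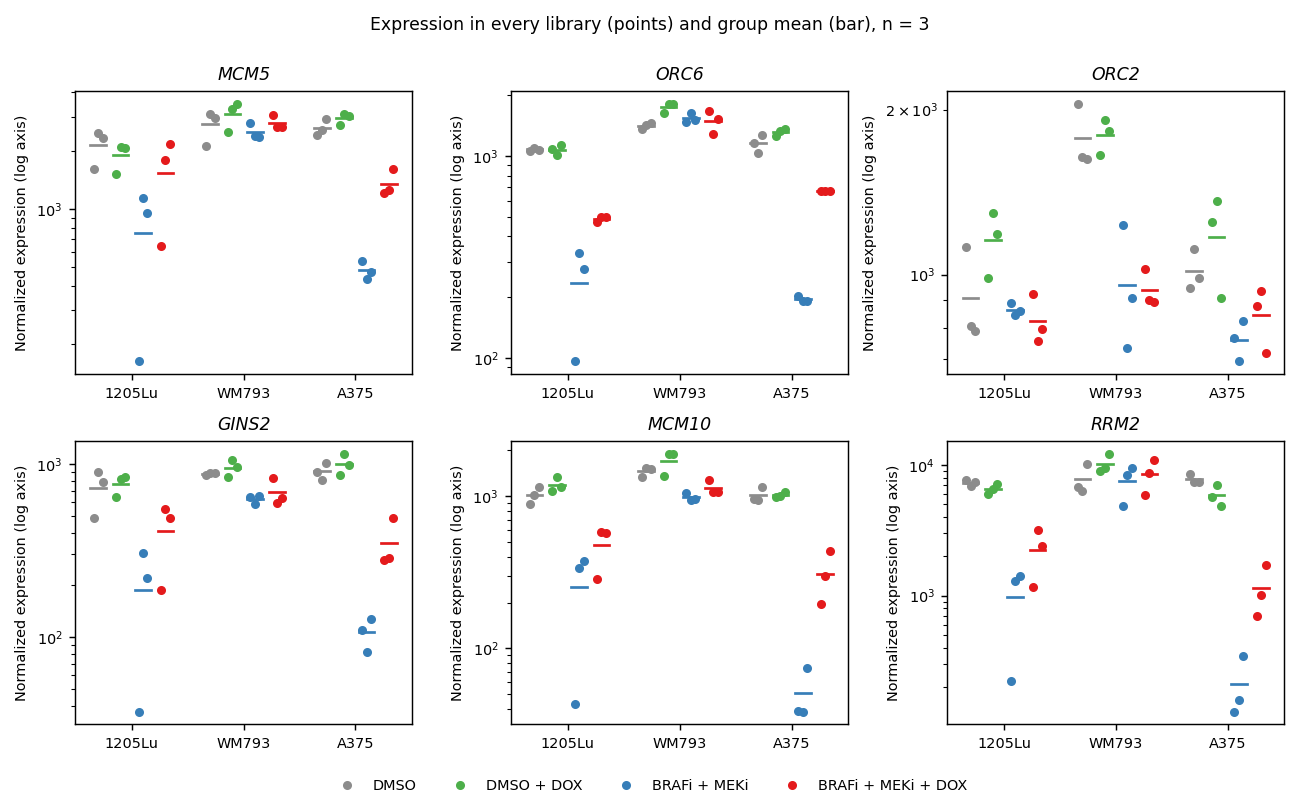
Normalized expression of MCM5, ORC6, ORC2, GINS2, MCM10 and RRM2 in each library on a log axis, by line and treatment, with each point a library and each bar a group mean. MCM10 was between 38.5 and 74.7 in A375 with BRAFi + MEKi and between 196 and 435 with BRAFi + MEKi + DOX, and ORC2 overlapped between these groups.

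The lines differed in this inhibitor response for most members. In a fit of all 36 libraries the fall was larger in A375 than in WM793 for 34 members and smaller for none, where 12.7% of all genes differed in that direction and 10.1% in the other. The largest differences were 5.27 (SE 0.65) for RRM2, 4.47 (SE 0.55) for TK1, 3.80 (SE 0.63) for MCM10 and 3.70 (SE 0.49) for CDT1. The log2 fold change was lower in 1205Lu than in WM793 for 28 members, against 7.94% of all genes, and higher for ORC2 (0.86) and ORC4 (0.82), against 6.52%. With only the libraries compared 18 members were lower and 0 higher, and with the same total 33 were lower and 0 higher. Between 1205Lu and A375, A375 fell further for 9 members, against 8.08% of all genes. These were MCM2, MCM6, CDT1, CDC45, MCM10, PRIM1, RPA3, RRM2 and TK1. 1205Lu fell further for POLE (−1.43, SE 0.43) and FEN1 (−1.03, SE 0.28), against 6.65%. That last comparison is unstable, since without 1205Lu BRAFi + MEKi replicate 1 the count for A375 was 21, without 1205Lu DMSO replicate 1 or BRAFi + MEKi replicate 2 or 3 it was 2, and without 1205Lu DMSO replicate 3 or A375 DMSO replicate 3 it was 5. It was 4 without A375 DMSO replicate 1 or A375 BRAFi + MEKi replicate 2 and 3 without A375 BRAFi + MEKi replicate 1. The count for 1205Lu was 1 without 1205Lu DMSO replicate 2, 1205Lu BRAFi + MEKi replicate 1 or A375 BRAFi + MEKi replicate 3. For ORC2 and ORC4 the count of 2 was 1 (ORC2) without replicate 1 of both 1205Lu inhibitor groups, where 24 members were lower. The count for A375 was then 23, and that for 1205Lu was 2. The count of 2 for ORC2 and ORC4 was also 1 without 1205Lu BRAFi + MEKi replicate 1, 2 or 3, WM793 DMSO replicate 1 or WM793 BRAFi + MEKi replicate 3, and 0 without WM793 BRAFi + MEKi replicate 2.

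With DOX added to BRAFi + MEKi, replication genes rose in A375. There 26 of 46 members rose and none fell, against 1.37% of all genes, and the log2 fold change was above 0 for all 46, with a median of 0.76. The groups did not overlap for 37 members, all higher with DOX, against 8.28% of all genes (7.13% were lower without overlap). Of the 26 members, 19 were called under each of 13 settings tried, and over the settings 34 members were called at least once. The other 7 were called under 10 (GINS1 and LIG1), 9 (MCM7 and FEN1), 8 (RRM1), 7 (POLE2) and 5 (PRIM2) of the 13. The level with BRAFi + MEKi + DOX was 50.4% of that with DMSO + DOX for the median member. It was highest for CDC7, at 106%.

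Counted by subgroup in A375, the members that rose were 6 of 6 of MCM2 to MCM7 (median 1.29), MCM8, 2 of 6 ORC genes (ORC1 and ORC6), CDC6 of the loaders, 3 of 4 GINS genes (all but GINS3), 2 of 4 firing factors (MCM10 and CDC45), 3 of 6 of the clamp and its loader (RFC3, RFC4 and RFC5), 2 of 7 polymerase genes (PRIM2 and POLE2), FEN1 and LIG1, none of 3 RPA genes and 4 of 4 nucleotide synthesis genes (median 1.77). The members that are absent from this list include ORC2 to ORC5, RFC1, RFC2, POLA1, POLD1, POLE, CDC7, DBF4 and UNG.

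The largest rises were those of MCM10, RRM2 and CDC45. MCM10 was 38.7, 38.5 and 74.7 without and 196, 299 and 435 with DOX, a rise of 2.59 (SE 0.28, adjusted p = 0.00017). RRM2 was 129, 158 and 345 without and 703, 1007 and 1701 with DOX, a rise of 2.46 (SE 0.33, adjusted p = 0.00084). CDC45 rose by 2.35 (SE 0.35, adjusted p = 0.002). Each of these pairs of groups was without overlap. Because the inhibitor effect and this DOX effect share the libraries with BRAFi + MEKi alone, no relation between them was computed.

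ORC6 had the smallest adjusted p of the members, at 203, 192 and 191 without and 675, 672 and 670 with DOX, a rise by 1.78 (SE 0.11, adjusted p = 6.7e-06). ORC1 rose by 1.69 (SE 0.16, adjusted p = 9.4e-05). For ORC2 the values were 766, 694 and 822 without and 878, 934 and 720 with DOX, which overlap (log2 fold change 0.14, SE 0.16, adjusted p = 0.84), and for ORC5 the log2 fold change was 0.02 (SE 0.13). CDC6 went from 313, 346 and 340 to 1131, 1226 and 1291, a rise of 1.86 (SE 0.15, adjusted p = 2.6e-05), whereas CDT1, at 91.2, 97.9 and 185 without and 206, 419 and 309 with DOX, did not pass the test although its groups did not overlap (log2 fold change 1.33, SE 0.32, adjusted p = 0.059).

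In the ring, MCM5 went from 537, 435 and 475 to 1204, 1249 and 1604, a rise of 1.48 (SE 0.13, adjusted p = 6.6e-05), and MCM3 from 2201, 2186 and 2410 to 3807, 3636 and 4580, a rise of 0.82 (SE 0.11, adjusted p = 0.00089). The smallest rise of the ring was 0.75 for MCM7 (SE 0.16, adjusted p = 0.029). MCM8 went from 570, 408 and 436 to 1028, 859 and 1026, a rise of 1.05. GINS2 went from 110, 81.3 and 128 to 277, 285 and 487, a rise of 1.68 (SE 0.23, adjusted p = 0.00081). GINS3, at 336, 324 and 344 without and 470, 429 and 526 with DOX, was not called (0.50, SE 0.13, adjusted p = 0.078). DBF4, at 426, 383 and 437 and then 511, 406 and 817, overlapped (0.42, adjusted p = 0.49).

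At the fork, RFC3 went from 472, 424 and 446 to 1039, 947 and 1265, a rise of 1.26 (SE 0.13, adjusted p = 0.00013), while RFC1 did not pass the test (0.31, adjusted p = 0.36). POLE2 went from 18.4, 17.5 and 19.7 to 48.1, 43.1 and 145, a rise of 1.80 (SE 0.40, adjusted p = 0.038) in which BRAFi + MEKi + DOX replicate 3 is far above the other two. POLD1 overlapped, at 736, 766 and 1078 without and 774, 1198 and 930 with DOX (0.17, adjusted p = 0.86). LIG1 went from 181, 195 and 366 to 553, 499 and 899, and FEN1 from 2122, 2126 and 2221 to 3249, 3094 and 3849, rises of 1.42 and 0.65. The RPA genes had log2 fold changes between 0.34 and 0.50 with adjusted p between 0.087 and 0.25. UNG had 0.63 (adjusted p = 0.16). RRM1 rose by 0.55 (SE 0.11, adjusted p = 0.023), from 1418, 1211 and 1363 to 1906, 1792 and 2161. The rise of RRM2, the small subunit of ribonucleotide reductase, was larger, and the difference between these subunits was not tested.

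**Figure D3:**
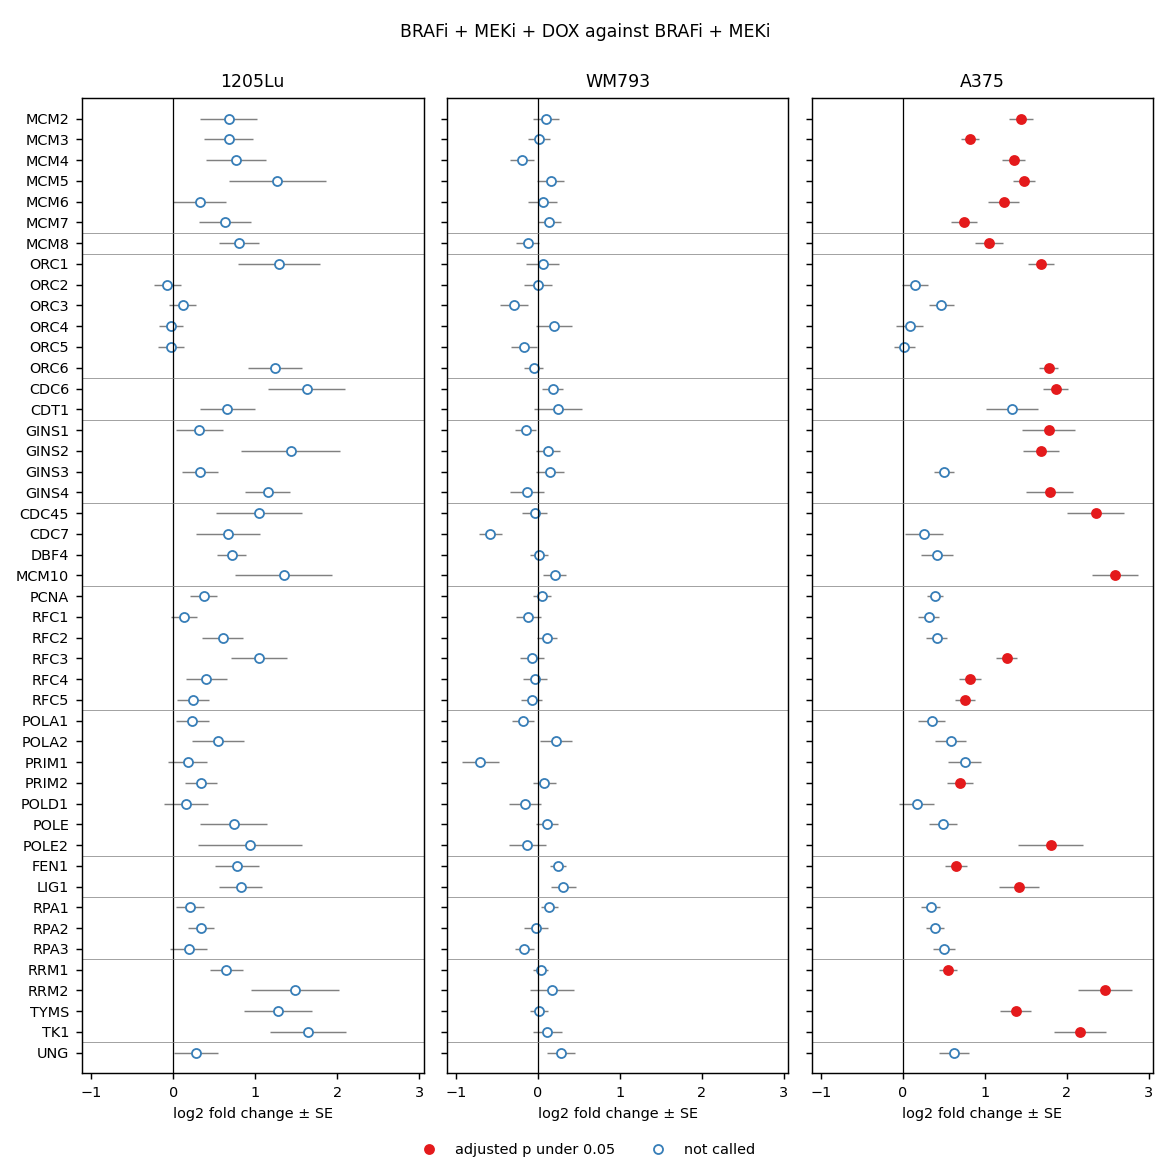
DOX effect under BRAFi + MEKi, as log2 fold change, for the 46 members in each line, with bars of 1 standard error and called members in red. The medians over the members were 0.65, 0.02 and 0.76 in 1205Lu, WM793 and A375, and A375 is the panel with members in red.

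In 1205Lu no member passed the test with DOX under BRAFi + MEKi, where 0.199% of all genes rose. The log2 fold change was above 0 for 43 members, with a median of 0.65 against −0.01 for all genes. Without BRAFi + MEKi replicate 1 the median was 0.22, with 36 members above 0 and 10 at an unadjusted p under 0.05 (8.46% of all genes), and MCM10 was at 0.35 and MCM5 at 0.38. Without BRAFi + MEKi + DOX replicate 1 the median was 0.83, with 44 members above 0 and 31 at an unadjusted p under 0.05 (17.4%), and without both libraries it was 0.47, with 39 above 0 and 25 at such a p (15.6%). With all libraries 18 members, each higher with DOX, had an unadjusted p under 0.05, against 9.72% of all genes. The groups did not overlap for 11 members, all higher with DOX, against 6.06% of all genes higher and 6.53% lower. The lowest adjusted p was 0.096, for GINS4 (log2 fold change 1.15, SE 0.27).

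The spread between the 1205Lu libraries was large. ORC6 was 95.9, 333 and 277 without and 474, 497 and 498 with DOX (1.24, SE 0.33, adjusted p = 0.15), which do not overlap. RRM2 was 220, 1302 and 1405 without and 1167, 3172 and 2404 with DOX (1.49, SE 0.54), MCM10 was 43.5, 338 and 378 and then 285, 579 and 570 (1.35, SE 0.59), and MCM5 was 163, 1146 and 956 and then 643, 1800 and 2174 (1.27, SE 0.59). In each of these 3 genes replicate 1 was the lowest library of both groups. CDC6 was 127, 724 and 560 and then 921, 1109 and 1501 (1.63, SE 0.47, adjusted p = 0.19), without overlap. Leaving out BRAFi + MEKi replicate 1 gave log2 fold changes of 0.69 for ORC6, 0.62 for RRM2 and 0.86 for CDC6. ORC2 was 887, 845 and 858 and then 922, 756 and 795, with overlap (−0.07, SE 0.17).

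How the 1205Lu libraries are paired or weighted changes this count. Same-numbered libraries of these groups deviated together, and with the replicate number as a block 7 members rose (MCM3, CDC6, GINS4, DBF4, LIG1, TYMS and TK1), against 0.912% of all genes. With library weights it was 11, against 2.89%. Without BRAFi + MEKi + DOX replicate 1, 3 rose (GINS4, DBF4 and FEN1), against 1.41% of all genes, and without BRAFi + MEKi replicate 1 none did. Without replicate 1 of both groups 4 rose (ORC6 by 0.71, FEN1 by 0.76, RRM2 by 1.03 and TK1 by 1.10), against 1.2% of all genes. The 13 ERK output genes had a median of −0.60 with DOX under BRAFi + MEKi in 1205Lu, with none called, and their part in the result was not tested.

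In WM793 no member was called with DOX under BRAFi + MEKi, where 0.0951% of all genes rose and 0.109% fell. The log2 fold change was above 0 for 27 of 46 members, the median was 0.02, and 3 members had an unadjusted p under 0.05, against 7.95% of all genes. The groups did not overlap for 4 members higher and 3 lower, against 6.94% and 7.04% of all genes. The lowest adjusted p was 0.17, for CDC7 (−0.58, SE 0.14). ORC6 was 1472, 1643 and 1517 without and 1665, 1293 and 1521 with DOX, MCM10 was 1041, 948 and 958 and then 1280, 1069 and 1059, and RRM2 was 4892, 8374 and 9482 and then 5879, 8656 and 10946. Only MCM10 of these 3 genes was without overlap (0.20, SE 0.14, adjusted p = 0.78).

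The DOX effect under BRAFi + MEKi was lower in WM793 than in A375 for 7 members, against 0.706% of all genes. They were ORC6 (−1.83, SE 0.32, adjusted p = 0.0016), GINS1 (−1.93, adjusted p = 0.01), GINS4 (−1.92, adjusted p = 0.01), PRIM1 (−1.46, adjusted p = 0.022), MCM8 (−1.18, adjusted p = 0.038), MCM4 (−1.55, adjusted p = 0.048) and CDC45 (−2.39, adjusted p = 0.0499). The count was 3 without WM793 BRAFi + MEKi replicate 1, WM793 BRAFi + MEKi + DOX replicate 2 or 3, or A375 BRAFi + MEKi + DOX replicate 3, it was 4 without WM793 BRAFi + MEKi replicate 3 or A375 BRAFi + MEKi replicate 1, and it was 2 without A375 BRAFi + MEKi replicate 2. It was 11 with only the libraries compared (0.682% of all genes), 16 under the replicate block (1.04%) and 23 with library weights (1.89%). Between 1205Lu and WM793 no member differed by the limma test, with 15 members at an unadjusted p under 0.05 (7.11% of all genes), all higher in 1205Lu, and a lowest adjusted p of 0.11 for ORC6. Of all genes 0.0822% were higher in 1205Lu there and 0.056% lower. Between 1205Lu and A375 none differed either, with 4 members at an unadjusted p under 0.05 (8.07% of all genes), all lower in 1205Lu, and a lowest adjusted p of 0.15 for GINS1, where 0.0747% of all genes were lower in 1205Lu. In the comparison of 1205Lu with WM793 1 member was called without 1205Lu BRAFi + MEKi replicate 1 or 3 and 2 without BRAFi + MEKi replicate 2 or BRAFi + MEKi + DOX replicate 1 of 1205Lu. In that of 1205Lu with A375 it was 4 without 1205Lu BRAFi + MEKi replicate 1 and 1 without A375 BRAFi + MEKi replicate 3. Library weights called 7 members higher in 1205Lu than in WM793 and 1 lower in 1205Lu than in A375, with shares of all genes in the last section. Without replicate 1 of both 1205Lu inhibitor groups, ORC6 was called against WM793, and 5 members (ORC6, GINS1, CDC45, MCM10 and RFC5) were called against A375, each lower in 1205Lu. The share of all genes in that fit is not given.

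Without inhibitors no member was called with DOX in any line by the limma test, where 0.00452%, 0.19% and 0.0164% of all genes rose in 1205Lu, WM793 and A375 and 0.00452%, 0.322% and 0.0328% fell. The medians over the members were 0.08, 0.17 and 0.04, and 2, 8 and 0 members had an unadjusted p under 0.05, against 6.85%, 9.92% and 7.95% of all genes. The 8 members in WM793 were all higher with DOX. The lowest adjusted p in each line was 0.65 for POLD1, 0.24 for CDT1 and 0.70 for ORC3. NR2F1 itself was higher by 1.93 on the log2 scale with DOX under DMSO in 1205Lu, which did not pass the test (adjusted p = 0.41), and rose by 6.39 in WM793 and by 5.49 in A375. In A375 MCM10 was 960, 945 and 1142 without and 987, 1007 and 1060 with DOX, and RRM2 was 8574, 7390 and 7404 and then 5687, 7019 and 4885. RRM2 was thus lower with DOX in each A375 library under DMSO, which did not pass the test.

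Whether DOX acted differently under the inhibitors than under DMSO was tested as the interaction of both treatments. In A375 the DOX effect was larger under BRAFi + MEKi for 11 members and smaller for none, against 0.439% and 0.0205% of all genes. They were RRM2 (2.89, SE 0.47), MCM10 (2.58, SE 0.40), TK1 (2.26), CDC6 (1.84), ORC6 (1.59, SE 0.16, adjusted p = 0.0016), ORC1 (1.54), MCM4 (1.43), MCM2 (1.36), TYMS (1.36), MCM5 (1.31) and RFC3 (1.08). The count was 7 without DMSO replicate 1, DMSO + DOX replicate 3 or BRAFi + MEKi replicate 1 or 2, and 17 without BRAFi + MEKi replicate 3. In 1205Lu and WM793 no member was called by the limma test, nor was any other gene, with 9 members at an unadjusted p under 0.05 in 1205Lu, all higher, and 4 in WM793, all lower, against 5.72% of all genes in both lines. Without replicate 1 of both inhibitor groups RRM2 was called in 1205Lu. NR2F1 differed in the same direction in 1205Lu, with a DOX effect larger under BRAFi + MEKi by 1.40 (adjusted p = 0.84), and its part in the 1205Lu values was not tested.

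The inhibitor effect was also measured in cells that all had DOX. In cells with DOX 23 members fell in 1205Lu (13.2% of all genes), 26 in WM793 (15.1%) and 36 in A375 (14.8%), and none rose in any line. The medians were −0.87 (−0.72 without the 2 libraries of 1205Lu that stood apart), −0.51 and −0.98. In WM793 17 members fell both without and with DOX, and the 9 called with DOX and not without it were CDC7, GINS4, MCM2, MCM4, MCM6, POLE2, PRIM1, RFC2 and RRM1. The share of all genes with these patterns of calls is not given. For none of the 9 members was the difference between both inhibitor effects past the threshold, since the interaction called no gene in WM793, and it called none in 1205Lu. With libraries rescaled to the same total the WM793 count was 1 higher (22.5% of all genes) and 19 lower (11.1%), and the A375 count was 35 lower (11.6%). In 1205Lu the count of 23 was 15 without DMSO + DOX replicate 1 or 2 or BRAFi + MEKi + DOX replicate 1, 14 without BRAFi + MEKi + DOX replicate 2 and 12 without DMSO + DOX replicate 3, and it was 26 without replicate 1 of both inhibitor groups. The member with the lowest remaining level was POLE in 1205Lu, at 24.3% of DMSO + DOX, RRM2 in A375, at 19.4%, and DBF4 in WM793, at 50.9%.

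**Figure D4:**
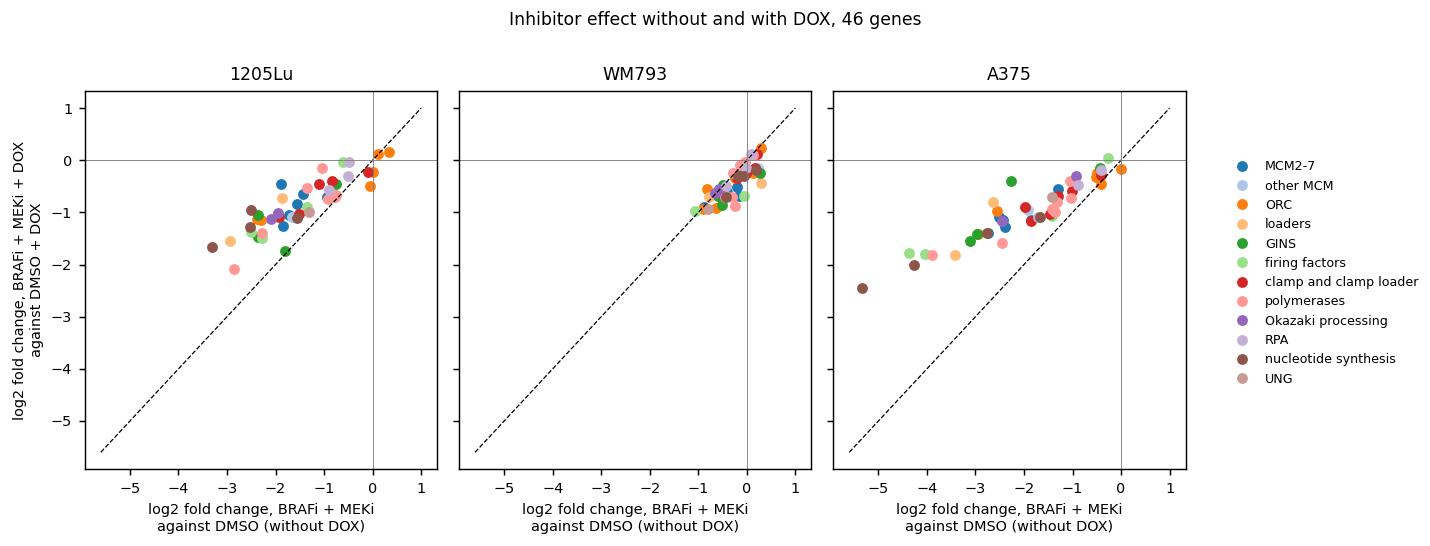
Log2 fold change with BRAFi + MEKi without DOX (horizontal axis) and with DOX (vertical axis) for the 46 members in each line, where the dashed line marks equal effects. In A375 all members lie at or below 0 without DOX and the medians are −1.78 without and −0.98 with DOX, while in WM793 the medians are −0.24 and −0.51.

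Set side by side per kilobase of the canonical transcript, the members span a wide range of levels. With DMSO the highest were MCM7, at 3640 ± 758, 4900 ± 1010 and 4170 ± 529 per kilobase (SD, n = 3) in 1205Lu, WM793 and A375, and PCNA, at 4410 ± 759, 4000 ± 341 and 4060 ± 356. Their means differ by less than either SD in A375, by less than the SD of MCM7 in WM793 and by slightly more than either SD in 1205Lu. The lowest were ORC1 in 1205Lu (140 ± 46.7) and POLE2 in WM793 (187 ± 41.6) and A375 (172 ± 28.7). The next lowest, CDT1 in 1205Lu (155 ± 53.4) and WM793 (189 ± 77) and CDC7 in A375 (173 ± 30.4), differ from them by less than their spread. With BRAFi + MEKi in A375, POLE2 was at 10.9 and MCM10 at 11.1 per kilobase. Of the 46 members 22 share exonic bases with another annotated gene, and in 8 of them (GINS3, GINS4, MCM2, MCM8, POLA2, PRIM1, RFC5 and TYMS) this is at least 10% of the exonic bases, so that their values could hold reads of the neighbour.

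Other genes of the same process were read from lists of genes that are not members. Of 30 other replication factors 25, 11 and 25 fell with BRAFi + MEKi in 1205Lu, WM793 and A375, beside 14.4%, 16.9% and 19% of all genes. With DOX under BRAFi + MEKi in A375 17 rose, beside 1.37% of all genes, with a median of 0.71. These included DTL, the substrate receptor that targets CDT1 for degradation (2.18, adjusted p = 7.5e-05), CDCA5, which stabilizes cohesin (2.01, adjusted p = 1e-04), and TIMELESS of the fork protection complex (1.10, adjusted p = 0.00023). In 1205Lu 1 of the 30 rose, the firing factor TICRR (1.39, adjusted p = 0.01), named here after its values were seen, and in WM793 none was called.

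Of 28 other genes of nucleotide synthesis, mostly of the de novo purine and pyrimidine routes, 22 fell with BRAFi + MEKi in A375 (19% of all genes), but none was called with DOX there. Their median with DOX was 0.18, and DCK (0.50) and GMPS (0.33) were among the 3 with the smallest adjusted p. The 4 members RRM1, RRM2, TYMS and TK1 thus rose in A375 while no gene of this longer list passed the test, a difference that was not tested itself. Read against the 1.37% of all genes that rose with DOX under BRAFi + MEKi in A375, 5 of 18 E2F and pocket protein genes rose, led by E2F1 (2.11, adjusted p = 0.00022) and MYBL2 (2.05, adjusted p = 0.00081), and the median was 0.15. Of 14 genes of chromatin assembly behind the fork 5 rose, with the histone chaperone ASF1B at 2.46 (adjusted p = 0.00014) and CHAF1A at 1.09 (adjusted p = 0.00029). Of 12 cyclins, kinases and inhibitors of G1/S 3 rose, namely SKP2 (2.33, adjusted p = 7.5e-05), CDC25A (1.41) and CCNA2 (1.74). SKP2 also rose with DOX under DMSO in A375 (2.56, adjusted p = 0.00012), where CDC25A (−0.02) and CCNA2 (−0.04) were not called.

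The 13 ERK output genes checked whether the inhibitors acted. Of these 11 fell with BRAFi + MEKi in 1205Lu and 12 in both WM793 and A375, beside the shares of all genes that fell, given above with the members. With DOX under BRAFi + MEKi none of them was called in A375, where their median was 0.02 beside the 26 members that rose. None was called in 1205Lu or WM793 either, and the part of ERK output in the rise of the members was not tested. The share of mitochondrially encoded RNA went from 1.18% to 2.12% with BRAFi + MEKi in A375 and was lower with BRAFi + MEKi in the other lines, and its part in these results was not tested. With DOX under BRAFi + MEKi in A375 it was 2.29%.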

How the data were processed

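Human melanoma cells were profiled by RNA-Seq (TruSeq RNA v2, no strand). Reads were mapped by the authors to GRCh38 (STAR 2.7.0, GENCODE 35), summarized per gene (RSEM 1.2.28) and normalized (DESeq2 1.28.1). The deposited signal values are normalized expression scaled over 36 libraries and are not counts, since between 4.1% and 38.3% of low values per library are whole multiples of its step (tolerance 0.01). Depth therefore had to be estimated. No 2 libraries were identical, and log2 values of replicates correlated across genes with r between 0.967 and 0.987.

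Names and coordinates come from GENCODE 44. Genes with a group mean of at least 1 were tested on log2(value + 1) with limma 3.58.1 (R 4.3.3, mean-variance trend, 12 libraries of a line together, Benjamini-Hochberg threshold 0.05), and differences between lines over 26779 genes in all 36 libraries. The test was tested on simulated data. Members, lists and tests were chosen with earlier results of these data known. Values per library are given for the member of each subgroup with the largest and the smallest mean absolute response to DOX under BRAFi + MEKi, and other listed genes are the 3 with the smallest adjusted p in A375, of which 1 gene is not reported here. Percentages beside a count are those of all genes tested that pass the same rule. Where a fit leaving out libraries has no percentage beside its count, the share of all genes is not given. Such counts are not read against a background.

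Alternatives were a pseudocount of 0.1, no filter, a fit of the compared libraries, a replicate block, the same total, library weights and leaving out each library. Leaving out replicate 1 of both 1205Lu inhibitor groups was added after seeing the data. Deviations of same-numbered libraries correlated across genes above 0.1 in every pair for DOX under BRAFi + MEKi in 1205Lu (0.27, 0.11 and 0.11) and WM793 (0.25, 0.18 and 0.11). That pairing comes from the data and is not given by the labels.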

Additional observations from a re-analysis of the deposited data

Results flagged for a closer look

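Differences between the cell lines passed a test of the difference itself for the following results, and no explanation was tested for them. The DOX effect under BRAFi + MEKi was lower in WM793 than in A375 for MCM4 (−1.55), MCM8 (−1.18), ORC6 (−1.83), GINS1 (−1.93), GINS4 (−1.92), CDC45 (−2.39) and PRIM1 (−1.46), as differences of log2 fold changes. The effect of BRAFi + MEKi without DOX differed for 30 members between 1205Lu and WM793, for 11 between 1205Lu and A375 and for 34 between WM793 and A375. With only the libraries compared, 18 members were lower and 0 higher in 1205Lu than in WM793. The count for which A375 fell further than 1205Lu was 2 to 21 on leaving out single libraries. Shares of all genes are given with these results above.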

How the results depend on the processing

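Directions of called members were kept under every alternative run, and no result reversed. With a pseudocount of 0.1 or no filter on low values no count moved by more than 1.5 times. For DOX under BRAFi + MEKi, library weights gave 11 members higher in 1205Lu (2.89% of all genes) and 2 lower in WM793 (0.938%), and under DMSO they gave 1 higher in WM793 (0.779%). For the inhibitors with DOX in 1205Lu weights gave 1 higher (23.5%). The same total gave 7 higher (27.3%) and 8 lower (12.2%) for the inhibitors in WM793 and 1 higher with DOX (22.5%). For the inhibitor effect between 1205Lu and WM793, only the libraries compared gave 0 higher (5.33%) and 18 lower (6.96%), and the same total 0 higher (4.55%). Between 1205Lu and A375 only the libraries compared gave 2 higher (7.99%) and 0 lower (6.79%), and weights 14 higher (11.4%). For the DOX effect, weights gave 7 higher between 1205Lu and WM793 (1.58%) and 1 lower between 1205Lu and A375 (1.77%), and between WM793 and A375 the count lower was 11 with only the libraries compared (0.682%) and 23 with weights (1.89%).

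With the replicate number as a block, 7 members rose with DOX under BRAFi + MEKi in 1205Lu (0.912% of all genes), 1 rose with DOX under DMSO in WM793 (0.562%), and 16 were lower in WM793 than in A375 for the DOX effect (1.04%). The block moved no other count of calls by more than 1.5 times. Outside DOX under BRAFi + MEKi in 1205Lu and WM793, no comparison within a line had every same-numbered pair correlated above 0.1. Single pairs did reach 0.23 in A375 (replicate 3) and 0.20 in 1205Lu (replicate 1), for DOX under DMSO.

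Leaving out single libraries gave 0 to 3 members higher with DOX under BRAFi + MEKi in 1205Lu and 19 to 27 in A375, 12 to 16 lower with the inhibitors with DOX in 1205Lu, 0 to 1 higher with the inhibitors in WM793 (1 without WM793 DMSO replicate 2) and 7 to 17 higher for the interaction in A375. For the inhibitor effect it gave 2 to 21 higher and 1 to 2 lower between 1205Lu and A375, 0 to 3 higher between 1205Lu and WM793, and 0 to 1 lower between WM793 and A375 (1 without WM793 BRAFi + MEKi replicate 1). For the DOX effect it gave 0 to 2 higher between 1205Lu and WM793, 0 to 4 lower between 1205Lu and A375 (5 without replicate 1 of both 1205Lu inhibitor groups) and 2 to 10 lower between WM793 and A375. The cause of these moves was not tested. With 3 libraries a group and depth known only by estimate, small changes of low members such as POLE2 could be missed. On simulated data of DOX under BRAFi + MEKi, genes changed by a log2 of 1 were recovered in part. The number recovered was 42, 62 and 64 of 100 in 1205Lu, WM793 and A375.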
